A study of Mus musculus with 12 samples.

Results

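Interferon-stimulated genes (ISGs) are the genes that a cell switches on when it senses interferon, and 48 of them were followed in tumor-infiltrating myeloid cells before and after irradiation. They were taken as a list of mouse gene symbols, which was matched by the exact GENCODE symbol to the Ensembl identifiers of the count tables, and all 48 were found among the 54446 genes counted in each library. The libraries came from YTHDF2 RNA immunoprecipitation sequencing (RIP-seq) of CD11b+ cells, which were purified from MC38 tumors, grown under the skin from a mouse colon carcinoma line. The hosts were WT mice of the C57BL/6J background and of both sexes, 8 to 10 weeks old, which the methods give as Ythdf2 fl/fl animals. Ctrl tumors were not irradiated, and IR tumors received 20 Gy in a local dose, with the cells collected 3 days later. Each condition had 3 pools of 5 mice. The Input, a small portion set aside from each lysate, measures how abundant a transcript was, and the IP holds the RNA that an antibody to YTHDF2 pulled down from the remainder. This gave 12 libraries in 4 groups of 3.

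The pools are called technical replicates in the methods, so the p-values below measure the spread between these pools. The labels name an Abcam antibody and isolated mRNA, whereas the methods name an Aviva antibody and a kit for total RNA, and no library made with a control antibody was analysed here. Reads counted on genes ranged from 34445784 to 42382532 in the 6 Input libraries and from 27852948 to 33882664 in the 6 IP libraries. The IR IP libraries stood apart. Of their uniquely aligned reads, 49.4 to 54.1% were assigned to no feature in the counting, against means of 42.3% in the Ctrl IP, 27.0% in the Ctrl Input and 24.7% in the IR Input, and their replicates differed from each other more than those of the other groups. Levels are given as CPM, the counts of a gene relative to all reads on genes in its library, scaled by the TMM method over all 12 libraries, and 3 counts, the smallest level taken as detectable, came to 0.0708 to 0.108 CPM before that scaling. This floor covers counting error only.

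Interferons are secreted alarm proteins. Type I interferons signal through IFNAR1 and IFNAR2, and interferon gamma through IFNGR1 and IFNGR2, to JAK kinases and the transcription factors they activate. A complex that holds IRF9 binds the interferon-stimulated response element, a dimer formed after interferon gamma binds the gamma-activated site, and the genes driven from these sites encode antiviral effectors, sensors of nucleic acid, GTPases that attack vacuoles of microbes, and regulators of the pathway itself. YTHDF2 is a cytoplasmic protein that binds RNA carrying N6-methyladenosine (m6A) and is best known for directing such RNA to decay.

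The DNA before the start site is shown for 6 members named in the results below, all of them with a match to the interferon-stimulated response element. Other members named below, among them *Slfn2*, *Samhd1* and *Ifitm1*, had no match. RefSeq promoter sequences of the mouse build GRCm38.p6, from 250 bases before to 50 bases after a start site, were present for 38 of the 48 members. The core of the interferon-stimulated response element, searched on both strands as GAAA, any 2 bases, then GAAA, was found in 21 of these 38 members (55.3%) and in 1079 of the 27025 genes with a promoter (3.99%). The gamma-activated site, searched as TTCNNNGAA, was found in 13 of 38 members (34.2%) and in 9.55% of all genes. The motifs were counted separately, matches of either may overlap, and a match describes letters and not binding. The windows below hold 60 bases each, read 5′ to 3′ on the strand of the gene, with every match to the response element core in capitals. A core read on the opposite strand shows as TTTC in place of GAAA. The windows lie at chr3:142620579-142620638 for *Gbp2*, chr3:142559980-142560039 for *Gbp3*, chr3:142530258-142530317 for *Gbp7* and chr19:34640779-34640838 for *Ifit1*, all on the plus strand. Those of *Isg15* and *Ifi203* lie on the minus strand, at chr4:156200850-156200909 and chr1:173942493-173942552. The match nearest to the start site began at position -59 in *Gbp2*, -39 in *Gbp3*, -53 in *Gbp7*, -85 in *Ifit1*, -66 in *Isg15* and -35 in *Ifi203*, counted from the start site at 0.
Gbp2: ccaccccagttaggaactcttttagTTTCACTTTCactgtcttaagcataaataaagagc
Gbp3: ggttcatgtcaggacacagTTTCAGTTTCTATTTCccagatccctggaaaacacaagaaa
Gbp7: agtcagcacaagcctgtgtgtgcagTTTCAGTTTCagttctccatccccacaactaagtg
Ifit1: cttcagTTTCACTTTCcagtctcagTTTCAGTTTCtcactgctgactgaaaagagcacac
Isg15: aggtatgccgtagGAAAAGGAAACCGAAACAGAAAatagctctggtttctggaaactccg
Ifi203: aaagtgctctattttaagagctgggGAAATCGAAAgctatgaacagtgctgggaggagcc

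The 3 guanylate-binding protein genes shown lie on the same strand of chromosome 3, from 142530342 to 142638008 (mm10), and all carry the core within the 60 bases before the start site, yet they were recovered with YTHDF2 in opposite directions, as described below. *Isg15* has a run of overlapping cores and was still among the scarcer members. Of the 20 members with the core that were tested, 12 were higher in IR and 1 was lower, with a median log2 fold change of 0.29. Of the 16 tested without it, 7 were higher and 1 was lower, with a median of 0.25. The difference between these groups was not tested. The other 10 members had no promoter entry.

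Interferon itself was barely seen in these cells. The 21 interferon ligand genes examined summed to 0.0572 to 0.154 CPM in the Ctrl Input libraries and to 0.0248 to 0.166 CPM in the IR Input libraries, and *Ifna4*, *Ifna9*, *Ifna11* and *Ifna16* had no count in any library. The receptors were well expressed, with a summed level of 469 to 488 CPM in the Ctrl Input and 547 to 571 CPM in the IR Input. Of 6 receptor genes, 4 were higher in IR and 1 was lower, and of 10 genes for the kinases and transcription factors of the pathway, 3 were higher and none was lower.

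The ISGs covered a wide range of levels in unirradiated cells. By mean level in the Ctrl Input, 3 members reached 100 CPM (*Slfn2*, *Samhd1* and *Mx1*), 24 lay between 10 and 100 CPM, 17 between 1 and 10 CPM, and 4 (*Ifit3*, *Ifit3b*, *Ifi44* and *Iigp1*) under 1 CPM. Levels of different genes can be compared only per length, so they were divided by the exonic length of each gene. On that scale *Slfn2*, a Schlafen gene needed for the quiescence of T cells and monocytes, stood first with 314 CPM per kb. It was followed by *Ifitm1* (77.6 CPM per kb), *Ifitm3* (64.5), *Mx1* (62.3), *Samhd1* (53.0), *Ifi27l2a* (49.1), *Ifitm6* (42.8), *Ifitm2* (40.3) and *Bst2* (37.9). Below these came *Ifi35* with 19.7 CPM per kb. *Iigp1*, an immunity-related GTPase, had 0 to 7 counts per library and was not tested in any comparison. *Ifit3b* had too few counts for all comparisons within the Input or within a condition, and *Ifi44* too few for that within the Input.

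After irradiation many ISG transcripts were more abundant. Between the IR and Ctrl Inputs, 25 of the 45 members tested were higher and 2 were lower by edgeR's quasi-likelihood test at a Benjamini-Hochberg adjusted p under 0.05, whereas 21.0% of all 16914 genes tested were higher and 23.9% were lower. The median log2 fold change of the members was 0.29 (range -0.58 to 0.74) beside 0.01 over all genes, and 41 of the 45 lay above the median of all genes. The change of each member was thus under 1 on the log2 scale. Scaled over all 12 libraries in one fit, the median of all genes was 0.10, the higher share of all calls moved from 46.8% to 63.6%, and the members lay 0.27 above all genes, where the fit within the Input gave 0.28. That fit, in which all groups share an estimate of the spread, called 17 of 47 members higher and 0 lower. The rises of *Ifit1*, *Oas1a*, *Rsad2*, *Gbp2*, *Ifitm2*, *Parp9*, *Slfn5* and *Trim30a* were not called in it (adjusted p = 0.0679 to 0.260). In bulk cells, fewer cells of a type and less RNA per cell cannot be told apart. Each test scaled its own libraries anew, so a fitted change can differ slightly from the ratio of the CPM printed beside it.

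The largest rise was that of *Mx1*, a gene of the family of antiviral Mx GTPases, which trap viral nucleocapsids. Whether these cells make a working protein from it was not measured. *Mx1* (chromosome 16, 97447035 to 97462907) had 226, 243 and 239 CPM in the Ctrl Input and 408, 430 and 412 CPM in the IR Input (log2 fold change 0.74, SE 0.03, adjusted p = 8.32e-16). Every IR pool lay above every Ctrl pool by a wide margin. *Mx2*, annotated as a polymorphic pseudogene in this strain's reference, rose from 4.83, 5.16 and 5.80 CPM to 8.98, 7.85 and 8.97 CPM (log2 0.63, SE 0.13, adjusted p = 2.01e-04), also without overlap. *Ifi27l2a*, a small interferon-induced membrane protein gene, had 21.8, 23.6 and 22.8 CPM in Ctrl and 40.2, 41.5 and 35.6 CPM in IR (log2 0.70, SE 0.07, adjusted p = 2.47e-09). *Rsad2* encodes viperin, which makes a chain-terminating nucleotide. Its Input level went from 3.17, 3.24 and 2.58 CPM to 4.24, 4.84 and 5.85 CPM (log2 0.65, SE 0.17, adjusted p = 0.00313), though not past the threshold with all 12 libraries in one fit (adjusted p = 0.156).

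**Figure D1:**
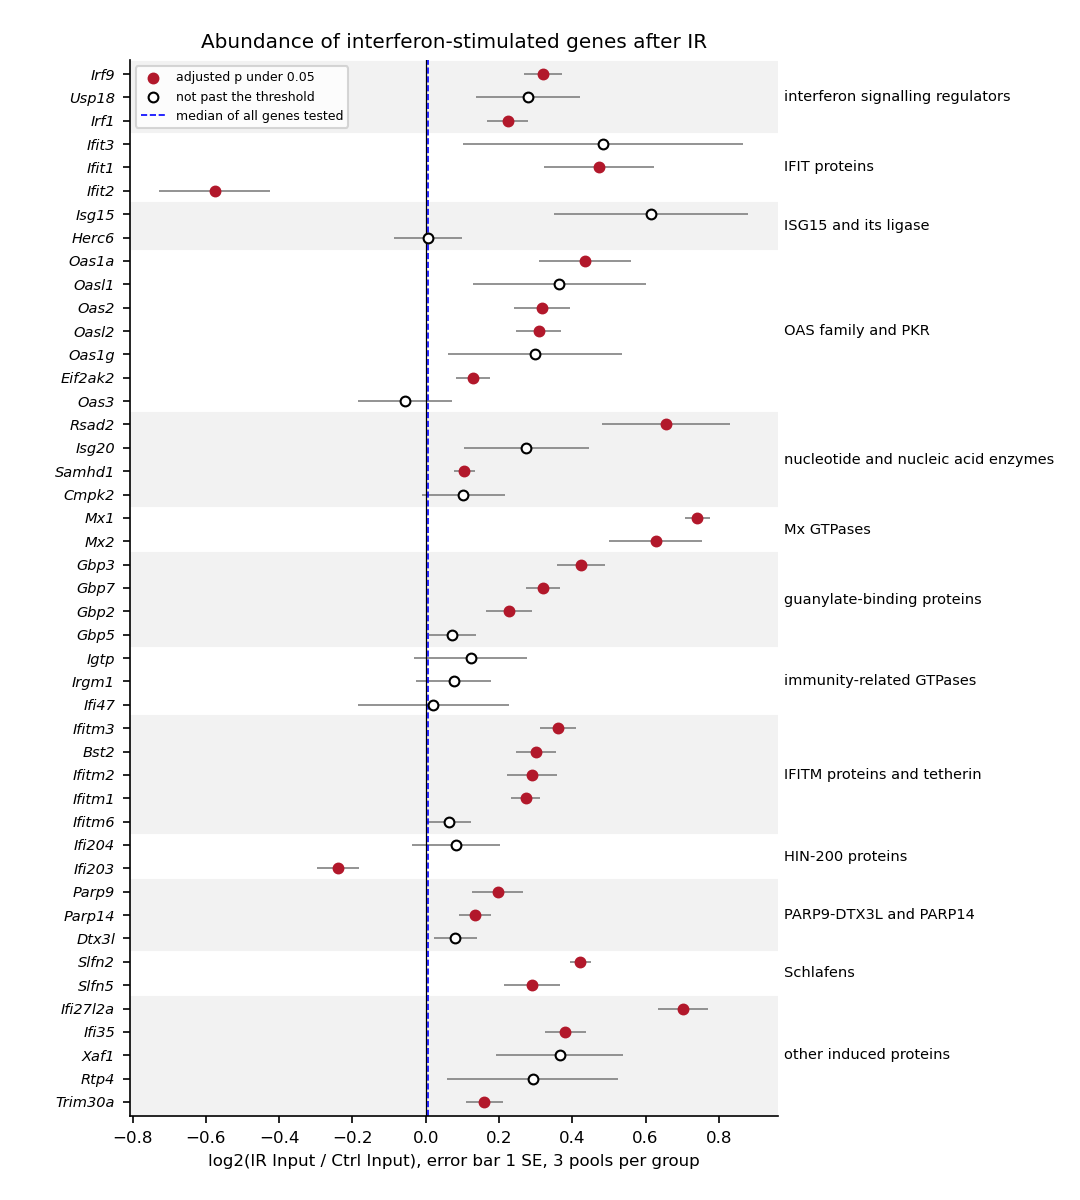
Log2 fold change between the IR and Ctrl Input for each tested member, grouped by role, with bars of 1 SE (n = 3 pools per group); filled points passed an adjusted p of 0.05. Most points lie to the right of 0, with *Mx1* at 0.74 and *Ifit2* at -0.58 at the ends.

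Among the abundant members, *Slfn2* (chromosome 11, 83065112 to 83070678) rose from 532, 518 and 516 CPM to 747, 747 and 721 CPM in the Input (log2 0.42, SE 0.03, adjusted p = 4.44e-12). *Samhd1*, which depletes deoxynucleotides, changed little but without overlap, from 478, 488 and 487 CPM to 554, 554 and 542 CPM (log2 0.10, SE 0.03, adjusted p = 0.00376). Of the 5 genes for IFITM proteins and tetherin, which act at membranes against enveloped viruses, 4 rose. *Ifitm3* went from 42.6, 44.5 and 44.1 CPM to 57.3, 59.3 and 61.2 CPM (log2 0.36, SE 0.05, adjusted p = 9.51e-07), and *Ifitm6* was the member of this group that did not pass (log2 0.06, adjusted p = 0.432). Of the guanylate-binding proteins, GTPases that coat vacuoles of pathogens, 3 of 4 rose. *Gbp3* had 24.9, 24.4 and 25.1 CPM in Ctrl and 37.7, 32.9 and 34.7 CPM in IR (log2 0.42, SE 0.07). For *Gbp2* the values were 27.6, 26.2 and 26.4 CPM and 32.7, 32.8 and 33.4 CPM (log2 0.23, SE 0.06, adjusted p = 0.0041). None of the 3 tested immunity-related GTPases passed, with *Irgm1*, which guards against self-attack by these GTPases, at a log2 fold change of 0.08 (SE 0.10, adjusted p = 0.589).

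The regulators *Irf1* and *Irf9* rose as well. *Irf1*, a transcription factor induced mainly by interferon gamma, had 41.9, 42.1 and 40.1 CPM in the Ctrl Input and 47.3, 51.9 and 53.8 CPM in the IR Input (log2 0.22, SE 0.06, adjusted p = 0.00164). *Irf9*, which gives the type I interferon transcription factor complex its DNA specificity, went from 42.4, 45.5 and 44.3 CPM to 55.8, 57.1 and 61.4 CPM (log2 0.32, SE 0.05, adjusted p = 1.09e-05). Neither pair of groups overlapped. The third regulator, *Usp18*, which removes ISG15 from proteins and restrains the receptor, had a log2 fold change of 0.28 (SE 0.14, adjusted p = 0.116), and was called higher without Ctrl Input 2 (adjusted p = 0.0300) or IR Input 3 (adjusted p = 0.0355).

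The classical type I interferon genes gave a mixed picture. *Ifit1*, whose protein binds viral RNA lacking a cap methyl group, had 4.89, 3.83 and 3.86 CPM in Ctrl and 6.33, 6.50 and 5.57 CPM in IR (log2 0.47, SE 0.15, adjusted p = 0.0118). Its relative *Ifit2* moved the other way, from 7.01, 5.68 and 6.24 CPM to 3.68, 5.17 and 4.56 CPM (log2 fold change -0.58, SE 0.15, adjusted p = 0.00279). *Isg15*, the ubiquitin-like modifier, had 45, 48 and 46 counts in Ctrl and 79, 72 and 76 counts in IR (log2 0.61, SE 0.27, adjusted p = 0.0615), so its groups did not overlap but the test was not passed at this depth. *Ifit3* was rarer still, with 0.858, 0.745 and 0.516 CPM against 0.874, 1.16 and 1.09 CPM (log2 0.48, SE 0.38, adjusted p = 0.326). *Ifi203*, a HIN-200 gene of the family of DNA sensors, was the other member that was lower in IR, with 54.2, 51.6 and 47.9 CPM against 47.6, 43.0 and 46.8 CPM (log2 -0.24, SE 0.06, adjusted p = 0.00104). With all 12 libraries in one fit neither *Ifit2* nor *Ifi203* was lower. The call for *Ifit1* was lost without Ctrl Input 2 or without Ctrl Input 3 (log2 0.40 to 0.41, adjusted p = 0.0602 to 0.0642).

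Several other small rises depended on single libraries. *Eif2ak2* (log2 0.13, adjusted p = 0.0282) lost its call without Ctrl Input 1, Ctrl Input 3 or IR Input 2 (adjusted p = 0.0527 to 0.127), and *Parp9* (log2 0.20, adjusted p = 0.0219) without Ctrl Input 1, IR Input 1 or IR Input 2 (adjusted p = 0.0618 to 0.148). Those of *Oas1a* (without IR Input 1, adjusted p = 0.0507), *Parp14* (without Ctrl Input 3, adjusted p = 0.0504) and *Trim30a* (without IR Input 3, adjusted p = 0.0615) were lost without the library named. The remaining 21 of the 27 calls were made without each library in turn. The reads of *Oas1a* are also uncertain, since 57.6% of its 50-base stretches occur in another gene.

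The summed RNA levels of several cell type markers also differed between the Inputs, and no cell fraction was measured. The summed level of 7 neutrophil markers was 6012 to 6730 CPM in the Ctrl Input and 8484 to 9194 CPM in the IR Input, with 5 of the 7 higher and none lower. That of 7 monocyte markers was 1645 to 1732 CPM and 1870 to 1987 CPM (3 higher, 2 lower), that of 7 macrophage markers 220 to 226 CPM and 196 to 205 CPM (4 higher, 3 lower), and that of 6 dendritic cell markers 62.8 to 68.8 CPM and 45.4 to 47.6 CPM (none higher, 4 lower of 5 tested). The 8 markers shared by myeloid cells, CD11b included, summed to 5679 to 5700 CPM in the Ctrl Input and 6801 to 6897 CPM in the IR Input, so the markers of the labelled cells were high in every Input. The 6 T cell markers summed to 0.664 to 1.93 CPM over the 6 Input libraries and the 4 NK cell markers to 0.0858 to 0.617 CPM. The 4 B cell markers summed to 18.6 to 20.0 CPM in Ctrl and 25.2 to 27.8 CPM in IR, and the 5 tumor cell and epithelial markers to 119 to 127 CPM and 90.9 to 96.9 CPM, with *Krt19* at 0 in every library. The 6 fibroblast and endothelial markers summed to 29.6 to 33.7 CPM over the 6 Input libraries. The part of these cell types in the ISG changes was not tested.

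YTHDF2 recovered the ISGs very unequally in unirradiated cells. Between the Ctrl IP and the Ctrl Input, 11 of 46 members tested were higher in the IP (enriched) and 19 were lower, against 34.1% and 34.6% of all 17416 genes tested. The share of enriched members was thus below that of all genes and the share of depleted members above it, with a median log2(IP/Input) of -0.31 (range -2.97 to 2.21) beside 0.02 over all genes. With scaling by library size only, the median of all genes was lower by 0.18, and the members lay 0.32 below it, the same distance as with TMM. In IR, 7 of 46 members were enriched and 23 were lower, against 32.1% and 30.4% of all 18650 genes tested, with a median of -0.57 beside 0.10 over all genes. With library size only, the median of all genes was higher by 0.15 in IR, and the members lay 0.67 below it on either scale. All 7 members enriched in IR were enriched in Ctrl, 18 members were lower in both, and no member was enriched in one condition and lower in the other. The Ctrl and IR comparisons share no library.

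The most enriched member in Ctrl was *Eif2ak2* (chromosome 17, 78852564 to 78882573), which encodes PKR, the kinase that senses double-stranded RNA and shuts down translation. It had 53.6, 57.6 and 57.3 CPM in the Ctrl Input and 243, 252 and 244 CPM in the Ctrl IP, 4.62-fold more (log2 2.21, SE 0.05, adjusted p = 1.01e-16). In IR the Input held 63.9, 67.1 and 63.7 CPM and the IP 170, 178 and 175 CPM (log2 1.48, SE 0.06, adjusted p = 2.5e-09). Each IP pool lay far above each Input pool in both conditions, and the IR IP pools lay below the Ctrl IP pools.

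*Gbp7* (chromosome 3, 142530342 to 142550149) was enriched 3.28-fold in Ctrl, with 61.7, 64.7 and 60.4 CPM in the Input and 211, 192 and 178 CPM in the IP (log2 1.72, SE 0.06, adjusted p = 6.07e-14). In IR it had 77.7, 81.7 and 86.8 CPM and 126, 147 and 133 CPM (log2 0.77, SE 0.07, adjusted p = 4.12e-06). The other 3 guanylate-binding protein genes tested were lower in the IP in both conditions. *Gbp2* had 7.97, 10.2 and 7.12 CPM in the Ctrl IP and 9.48, 11.7 and 9.20 CPM in the IR IP (log2(IP/Input) -1.58 and -1.65, SE 0.13 in both). *Gbp3*, which starts downstream of *Gbp7* at 142560026, had 12.1, 9.93 and 9.69 CPM in the Ctrl IP and 8.27, 8.51 and 9.63 CPM in the IR IP (log2 -1.15 with SE 0.12, and -1.94 with SE 0.13). *Gbp5* stood at -0.98 in Ctrl and -0.89 in IR. Members of the same family from the same chromosome stretch therefore differed by more than the spread between pools, with *Gbp7* above the Input in all 6 pools and its relatives below it in all 6. Of the 50-base stretches of *Gbp7*, 12.7% occur in another gene.

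*Parp14*, which encodes a mono-ADP-ribosyltransferase, had 62.6, 64.1 and 63.3 CPM in the Ctrl Input and 200, 196 and 199 CPM in the Ctrl IP (log2 1.72, SE 0.05, adjusted p = 1.47e-15), and 73.8, 74.6 and 71.8 CPM and 175, 206 and 188 CPM in IR (log2 1.42, SE 0.07, adjusted p = 1.42e-08). Its partners in the family, *Parp9* and the ubiquitin ligase *Dtx3l*, which work as a complex, stood near the Input. *Dtx3l* was slightly enriched in Ctrl (log2 0.20, adjusted p = 0.0249), a call lost without Ctrl Input 2 or 3 (adjusted p = 0.149 to 0.152), and *Parp9* was lower in IR (log2 -0.35, adjusted p = 0.0185), a call lost without IR Input 1 or 2 or IR IP 2 or 3 (adjusted p = 0.0633 to 0.106). The exons of these genes overlap by 458 bases on opposite strands, and the strand setting of the counting is not given in the sources used here.

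**Figure D2:**
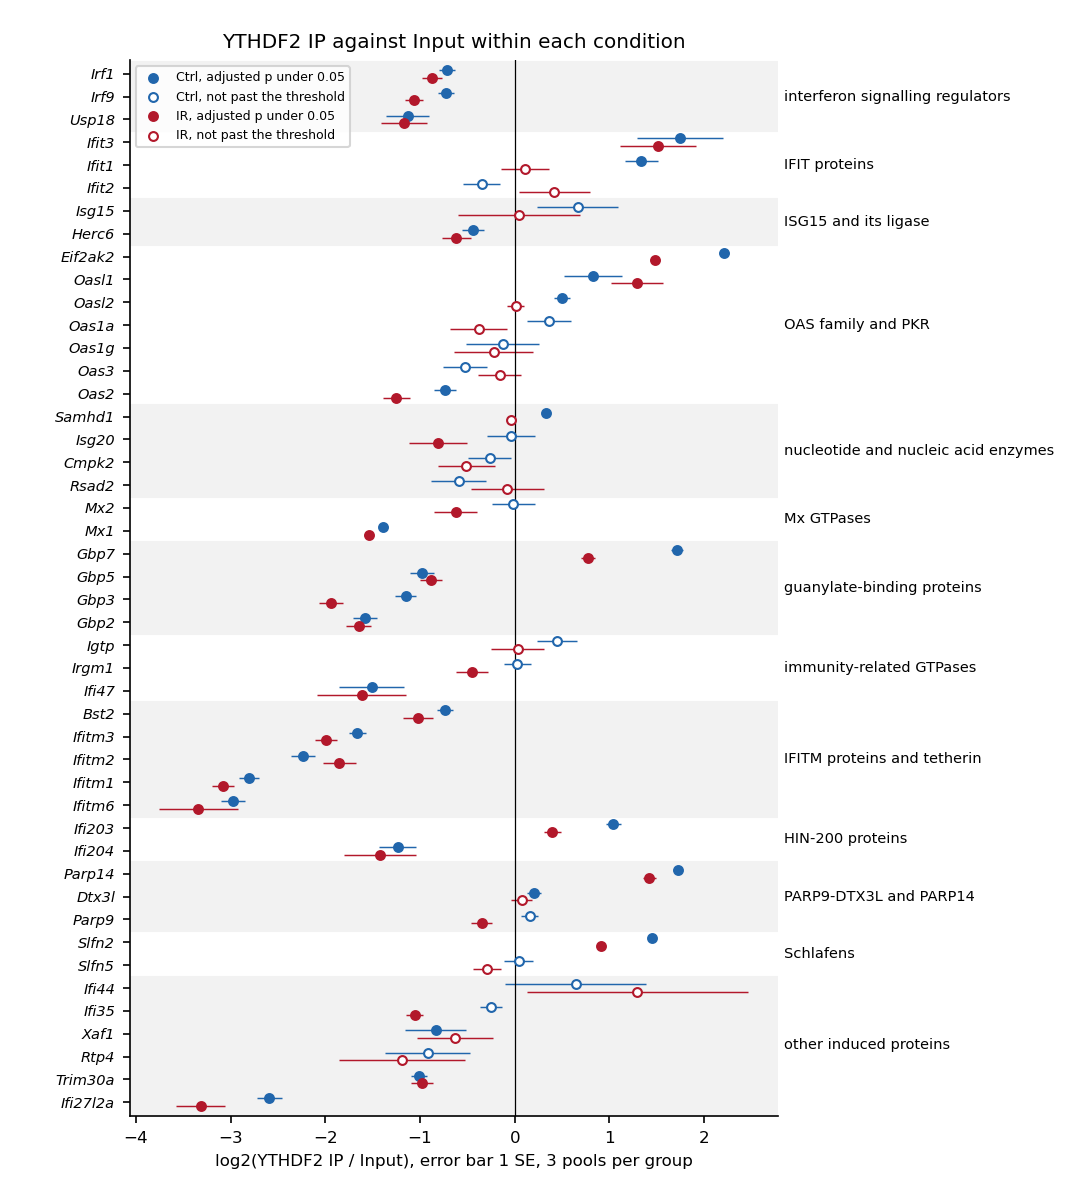
Log2(IP/Input) of each tested member in Ctrl and in IR, with bars of 1 SE (n = 3 pools per group). *Eif2ak2*, *Parp14*, *Gbp7* and *Slfn2* lie well above 0 in both conditions, and the IFITM genes and *Ifi27l2a* lie at the bottom, with *Ifitm6* at -2.97 in Ctrl.

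*Slfn2* was the most abundant member in every library and was higher still in the IP. It had 1337, 1369 and 1356 CPM in the Ctrl IP (log2 1.45, SE 0.03, adjusted p = 1.95e-16) and 1332, 1345 and 1322 CPM in the IR IP (log2 0.91, SE 0.03, adjusted p = 1.61e-09). The IP pools of the conditions spanned nearly the same range. *Slfn2* made up 23.2 to 24.2% of the summed CPM of all 48 members in the Ctrl Input and 42.3 to 42.9% in the Ctrl IP. Its relative *Slfn5* was near the Input (log2 0.04 in Ctrl and -0.29 in IR, adjusted p = 0.83 and 0.112), though called lower in IR with no filter (adjusted p = 0.00739) and without IR IP 1 (adjusted p = 0.0411). Of other Schlafens not on the list, *Slfn8* and *Slfn9* were enriched (log2 2.55 and 2.09 in Ctrl) and *Slfn4* was lower in the IP (log2 -1.94).

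Among the RNA-binding IFIT proteins, *Ifit1* and *Ifit3* were enriched in Ctrl. *Ifit1* had 10.6, 9.74 and 9.76 CPM in the Ctrl IP, above every Ctrl Input pool (log2 1.33, SE 0.17, adjusted p = 2.42e-06), but 6.30, 4.59 and 8.19 CPM in the IR IP, which overlapped the IR Input (log2 0.11, SE 0.25, adjusted p = 0.733). *Ifit3* had 1.12, 3.06 and 2.57 CPM in the Ctrl IP and 3.15, 2.26 and 3.18 CPM in the IR IP (log2 1.75 with SE 0.45, and 1.51 with SE 0.40). Its reads are uncertain, since 51.2% of its 50-base stretches occur elsewhere, mostly in *Ifit3b*. *Ifit2* did not pass in either condition (log2 -0.35 and 0.42), but was called lower in Ctrl with library size only (-0.53, adjusted p = 0.0207) and enriched in IR without IR IP 1 (0.81, adjusted p = 0.0392). *Isg15* had 3.07, 1.19 and 1.23 CPM in the Ctrl IP and 0.340, 2.05 and 3.48 CPM in the IR IP, a spread among the IP pools that came with no call (adjusted p = 0.178 in Ctrl and 0.959 in IR).

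The OAS enzymes, which make the second messenger that activates RNase L, and their relatives were divided. *Oasl1*, an inhibitor of *Irf7* translation, was enriched in Ctrl (2.57, 1.54 and 1.79 CPM in the Input, 4.23, 3.12 and 2.57 CPM in the IP, log2 0.83, adjusted p = 0.0243) and in IR (2.55, 3.12 and 2.35 CPM, and 7.93, 5.37 and 5.59 CPM, log2 1.29, adjusted p = 0.00184). The Ctrl call was lost without Ctrl Input 2, Ctrl Input 3 or Ctrl IP 1 (adjusted p = 0.0852 to 0.121). *Oasl2* had 29.2, 30.1 and 27.2 CPM in the Ctrl Input and 35.8, 40.2 and 40.0 CPM in the Ctrl IP (log2 0.50, SE 0.08, adjusted p = 4.65e-05). In IR its Input and IP pools overlapped (log2 0.01, adjusted p = 0.93). *Oas2* was lower in the IP in both conditions (log2 -0.74 and -1.25), and *Oas3* missed the threshold in Ctrl (log2 -0.52, adjusted p = 0.0525). It was called lower there with the replicate block, which pairs the IP and Input of a pool (log2 -0.56, adjusted p = 0.0410), and also with library size only, with no filter, with all 12 libraries in one fit and without Ctrl IP 3 (log2 -0.71 to -0.60, adjusted p = 0.0105 to 0.0380).

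*Samhd1*, abundant in all libraries, was modestly enriched in Ctrl, with 571, 581 and 576 CPM in the IP (log2 0.32, SE 0.03, adjusted p = 1.95e-07). In IR it had 491, 537 and 519 CPM in the IP, below every IR Input pool on this scale, and no call (log2 -0.04, SE 0.04, adjusted p = 0.418). It was called in both directions under alternatives, higher with library size only (log2 0.11, adjusted p = 0.0323) and lower with no filter (-0.18, adjusted p = 0.00618) and with all 12 libraries in one fit (-0.09, adjusted p = 0.0328). *Ifi203* had 87.5, 108 and 104 CPM in the Ctrl IP (log2 1.04, SE 0.08, adjusted p = 1.87e-09) and 58.6, 62.5 and 52.9 CPM in the IR IP (log2 0.39, SE 0.09, adjusted p = 0.00266). The other HIN-200 member, *Ifi204*, was lower in the IP in both (log2 -1.24 and -1.42). *Isg20*, an exonuclease, and *Irgm1* were called lower in IR, at log2 -0.81 (adjusted p = 0.0407) and -0.45 (adjusted p = 0.0375). Both calls were lost with the replicate block (log2 -0.83 and -0.45, adjusted p = 0.0673 and 0.0658). They were also lost without any of the 3 IR Input pools or without IR IP 1, that of *Isg20* also without IR IP 3 (adjusted p = 0.0733 to 0.154) and that of *Irgm1* also without IR IP 2 (adjusted p = 0.0566 to 0.137).

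The strongest depletion was found among the small membrane proteins. All 5 genes for IFITM proteins and tetherin were lower in the IP in Ctrl and in IR. *Ifitm1* fell from 85.1, 86.2 and 83.3 CPM in the Ctrl Input to 13.4, 9.09 and 12.2 CPM in the Ctrl IP (log2 -2.80, SE 0.10, adjusted p = 1.01e-13), and from 113, 105 and 107 CPM to 13.7, 9.90 and 13.4 CPM in IR (log2 -3.08, SE 0.12). *Ifitm6* had 37.1, 41.5 and 37.6 CPM in the Ctrl Input and 5.60, 4.50 and 3.87 CPM in the Ctrl IP (log2 -2.97, SE 0.13), and 41.5, 40.4 and 46.4 CPM and 1.20, 7.07 and 3.91 CPM in IR (log2 -3.34, SE 0.42). No IP pool reached any Input pool for either gene. *Ifitm3* had 12.2, 13.1 and 14.1 CPM in the Ctrl IP and 12.6, 16.5 and 14.0 CPM in the IR IP (log2 -1.66 and -1.99). *Bst2*, the gene for tetherin, which holds budding virus at the cell surface, was the least depleted of them at log2 -0.74 in Ctrl and -1.02 in IR. *Ifi27l2a* had 3.94, 3.34 and 3.47 CPM in the Ctrl IP and 2.07, 3.99 and 5.32 CPM in the IR IP (log2 -2.59 and -3.32).

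*Mx1*, the member that rose most in the Input, was lower in the IP, with 86.3, 83.4 and 86.7 CPM in Ctrl (log2 -1.39, SE 0.05, adjusted p = 2.9e-14) and 143, 139 and 132 CPM in IR (log2 -1.54, SE 0.05, adjusted p = 6.27e-10). *Mx2* was not called in Ctrl (log2 -0.02) and was lower in IR (log2 -0.62, adjusted p = 0.0336), a call lost without any of the 3 IR Input pools, IR IP 1 or IR IP 3 (adjusted p = 0.0595 to 0.107). The regulators *Irf1*, *Irf9* and *Usp18* were all lower in the IP in both conditions. *Irf1* had 22.6, 26.0 and 23.1 CPM in the Ctrl IP and 23.7, 29.5 and 27.3 CPM in the IR IP (log2 -0.71 and -0.87), and *Irf9* had 25.0, 27.1 and 23.5 CPM and 24.4, 27.4 and 28.5 CPM (log2 -0.73 and -1.07). Of the 6 other induced genes tested, 3 were lower in each condition. *Rsad2* had 2.11, 1.47 and 2.09 CPM in the Ctrl IP and 2.41, 7.58 and 3.65 CPM in the IR IP, with no call in either (log2 -0.59 and -0.08, adjusted p = 0.082 and 0.872), except in Ctrl with library size only (-0.77, adjusted p = 0.0259). Calls for 2 scarce members rested on single libraries. *Xaf1* was lower in Ctrl (log2 -0.84, adjusted p = 0.0303) but not without Ctrl Input 2, Ctrl Input 3 or Ctrl IP 3 (adjusted p = 0.0741 to 0.133), and *Ifi47* was lower in IR (log2 -1.62, adjusted p = 0.0113) but not without IR Input 2 (adjusted p = 0.0735).

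The enriched and depleted ISGs differed in transcript length, which the list did not use. The 11 members enriched in Ctrl had a median transcript length of 3754 bases and the 19 lower members one of 2296 bases, beside 3643.5 and 2739 bases for the enriched and lower coding genes at large. In the 3′ untranslated region the medians were 1772 and 515 bases, beside 1342.5 and 1024 bases. In IR the 7 enriched members had a median transcript length of 3754 bases and the 23 lower ones 2259 bases. Beside these stood 4275.5 and 2508 bases for the enriched and lower coding genes, so the difference was not particular to the ISGs. Across the 46 members, log2(IP/Input) and transcript length had a Pearson r of 0.463 and a Spearman rho of 0.363 in Ctrl, and 0.509 and 0.452 in IR. Across all coding genes these were 0.216 and 0.254 in Ctrl (13029 genes) and 0.268 and 0.369 in IR (13792 genes). The points are genes measured in the same libraries and are not independent replicates.

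The 7 members with a transcript under 1000 bases were *Isg15*, *Ifitm1*, *Ifitm2*, *Ifitm3*, *Ifitm6*, *Bst2* and *Ifi27l2a*, and all but *Isg15* were lower in the IP in both conditions. GGACT, a common core of m6A sites, occurred 9 times in the transcript of *Eif2ak2*, 7 of them in its 3′ untranslated region, and not at all in those of *Mx1*, *Mx2*, *Ifitm2* and *Ifitm3*. The median number per transcript was 3 in the enriched and 2 in the lower members in Ctrl, beside 4 and 3 in coding genes, and longer transcripts hold more matches. Methylation of these transcripts was not measured in these libraries.

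**Figure D3:**
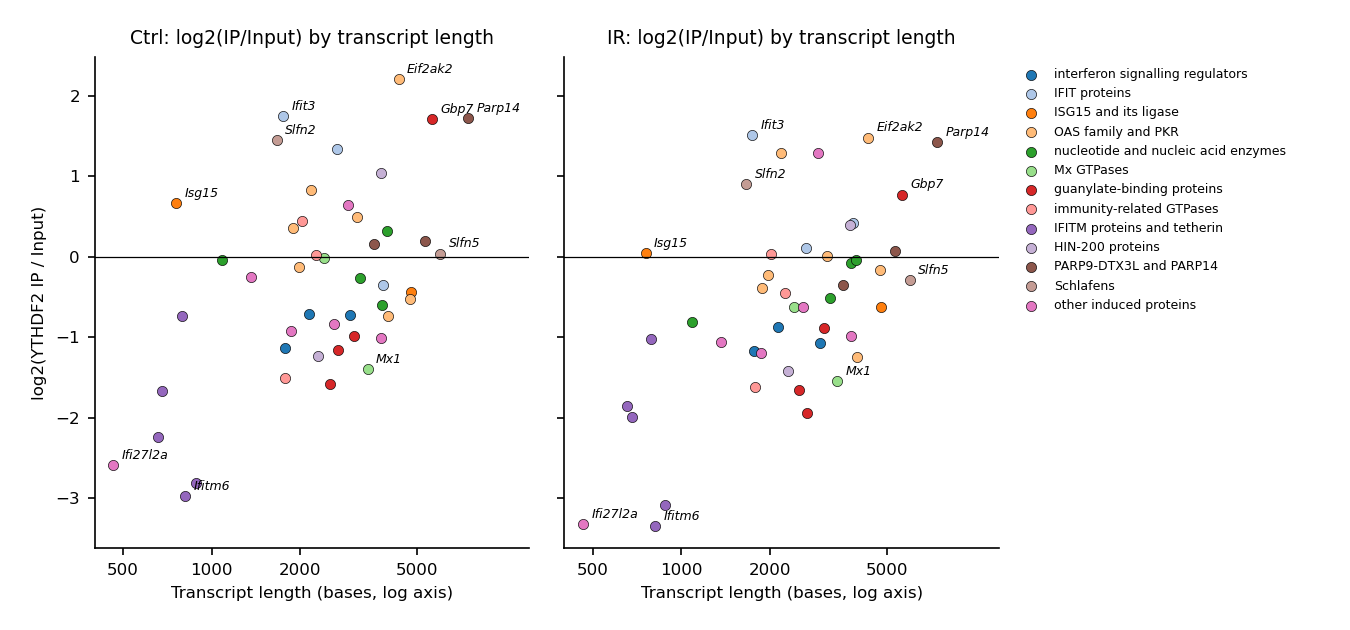
Log2(IP/Input) in Ctrl and in IR against transcript length in bases (log axis) for the 46 tested members. The short transcripts at the left, under 1000 bases, lie below 0 except *Isg15*, and the enriched members have longer transcripts, with medians of 3754 against 2296 bases for the lower members in Ctrl.

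The next comparison asked whether the share of a transcript held by YTHDF2 changed after irradiation. Its measure was the change of log2(IP/Input) from Ctrl to IR, the interaction of fraction and condition over all 12 libraries. None of the 47 members tested had a higher and 11 had a lower value in IR by edgeR's quasi-likelihood test, whereas 6.28% of all 20720 genes tested were higher and 13.9% were lower. At an unadjusted p under 0.05 no member was higher and 15 were lower, and DESeq2 called 0 higher and 11 lower, with 1 higher at an unadjusted p under 0.05. *Ifit2* was called higher without IR IP 1 (change 1.11, adjusted p = 0.0232). The median change was -0.28 (range -1.21 to 0.79), beside -0.08 over all genes. Of the 47 members, 38 lay below 0 and 34 below the median of all genes. Without Ctrl IP 1 these medians were -0.13 for the members and -0.02 for all genes.

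The direction of this comparison depended on the scaling. Without TMM, by library size only, the median of all genes was higher by 0.31, the higher share of all calls went from 31.1% to 76.5%, and of the members 1 was higher (*Ifitm2*) and 5 were lower (*Eif2ak2*, *Gbp7*, *Ifi35*, *Ifit1* and *Slfn2*), with a median of 0.03. Relative to the median of all genes the members lay 0.20 lower with either scaling. TMM takes most genes as unchanged, so a change of YTHDF2 binding shared by most transcripts cannot be seen in these data. The share of reads assigned to no feature was highest in the IR IP, and its part in the result was not tested.

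*Ifit1* changed most, from 10.6, 9.74 and 9.76 CPM in the IP over 4.89, 3.83 and 3.86 CPM in the Input in Ctrl to values that overlapped in IR (change of log2(IP/Input) -1.21, SE 0.30, adjusted p = 0.00648). *Gbp7* followed with -0.92 (SE 0.10, adjusted p = 1.2e-06). *Ifi35*, an interferon-induced leucine zipper protein, had 33.7, 32.5 and 35.9 CPM in the Ctrl Input, 21.9, 32.4 and 27.0 CPM in the Ctrl IP, 48, 47.3 and 45.3 CPM in the IR Input and 21.4, 22.6 and 21.2 CPM in the IR IP (change -0.78, SE 0.16, adjusted p = 0.00132). Its Ctrl IP and Input pools nearly touched without overlap, and lay further apart in IR. In Ctrl it missed the threshold (log2 -0.25, adjusted p = 0.0596), but was called lower with the replicate block (log2 -0.27, adjusted p = 0.0452), with library size only, with no filter, with all 12 libraries in one fit and without Ctrl IP 2 (log2 -0.44 to -0.33, adjusted p = 3.17e-04 to 0.0174).

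*Gbp3* had a change of -0.77 (SE 0.17, adjusted p = 0.0027), from below the Input in Ctrl to further below it in IR. *Eif2ak2*, *Ifi203* and *Slfn2* remained enriched at a lower ratio, with changes of -0.71 (SE 0.07, adjusted p = 6.11e-07), -0.62 (SE 0.12, adjusted p = 9.24e-04) and -0.52 (SE 0.04, adjusted p = 2.66e-08). *Samhd1* changed by -0.34 (SE 0.05, adjusted p = 6.82e-05). *Eif2ak2* and *Samhd1* had a higher Input and a lower IP in IR, as described below, and *Ifi203* was lower in both. In *Slfn2* the Input rose while the IP pools lay between 1322 and 1369 CPM in both conditions on the TMM scale. With library size only, *Slfn2* was called higher in the IR IP (log2 fold change 0.19, adjusted p = 7.07e-04).

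The remaining lower members were *Parp9* (-0.49, SE 0.15, adjusted p = 0.0223), *Oasl2* (-0.47, SE 0.12, adjusted p = 0.00903) and *Parp14* (-0.28, SE 0.08, adjusted p = 0.0185), and these were the ones that depended on a library. *Oasl2* was not called without Ctrl IP 2 or Ctrl IP 3 (adjusted p = 0.0560 to 0.0595), *Parp14* not without any of the 3 Ctrl IP pools or IR IP 3 (adjusted p = 0.0903 to 0.119), and *Parp9* not without Ctrl Input 1, IR Input 1, IR Input 2, any of the 3 Ctrl IP pools or IR IP 3 (adjusted p = 0.0562 to 0.0886). Of the 11 lower members, 8 were enriched in Ctrl, 1 was lower there (*Gbp3*) and 2 were not called (*Ifi35* and *Parp9*). Both calls use the same Ctrl libraries, so this overlap is partly built in. By role, the members lower on the TMM scale were 2 of 4 guanylate-binding proteins, 2 of 3 of the PARP9-DTX3L and PARP14 group, 2 of 7 of the OAS family and PKR, and 1 each of the IFITs, the nucleotide enzymes, the HIN-200 proteins, the Schlafens and the other induced genes. None of the 3 regulators, the 2 Mx GTPases, the 3 immunity-related GTPases or the 5 genes for IFITM proteins and tetherin changed at an adjusted p under 0.05 with all libraries on the TMM scale, and *Mx1* stood at -0.13 (SE 0.07, adjusted p = 0.207). For the IFITM proteins and tetherin this rested on single libraries. Without IR IP 2, *Ifitm2* was higher (0.58, adjusted p = 0.0356), and *Ifitm3* (-0.40, adjusted p = 0.0310) and *Ifitm6* (-1.01, adjusted p = 0.0435) were lower. Without IR IP 3, *Bst2* was lower (-0.42, adjusted p = 0.0300).

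**Figure D4:**
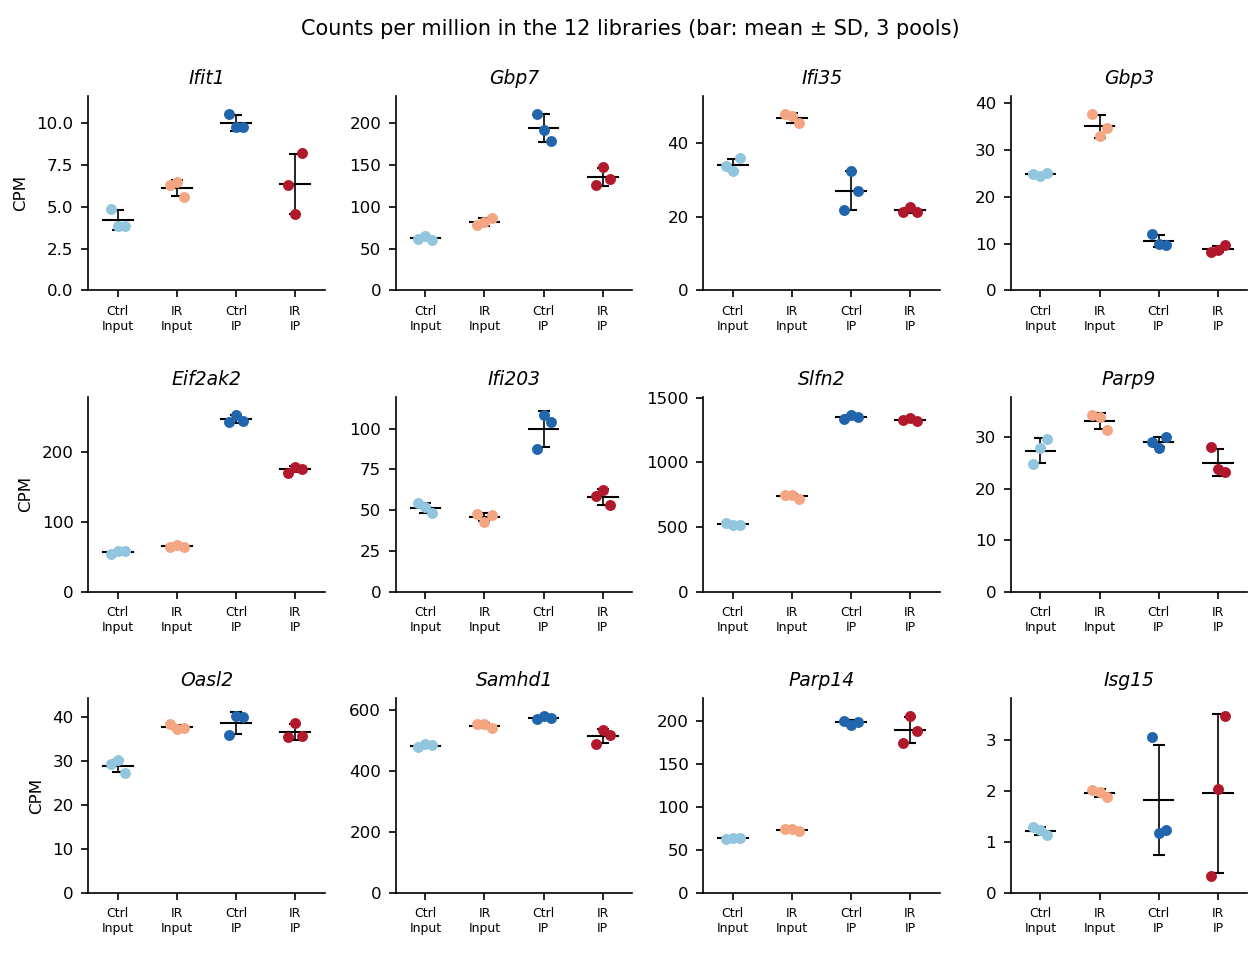
CPM of each pool in the 4 groups (points, 3 pools per group) with the mean and SD (bars), in a panel each for the 11 members whose log2(IP/Input) was lower in IR and for *Isg15*. For *Gbp7* the IP pools at 178 to 211 CPM in Ctrl come down to 126 to 147 CPM in IR while the Input rises, and for *Isg15* the IP pools scatter from 0.340 to 3.48 CPM.

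Genes upstream in the pathway were compared on the same TMM scale. Of the 6 receptor genes, 3 had a lower value in IR and none a higher one, and *Ifnar2* changed by -0.73 (SE 0.08, adjusted p = 1.79e-06) from a log2(IP/Input) of 1.28 in Ctrl to 0.53 in IR. Of the 10 kinases and transcription factors, 5 were lower and none was higher. Of 7 negative regulators of the pathway, 1 was higher and 2 were lower, and of 26 tested relatives of the members by gene family, none was higher and 4 were lower. Of all 20720 genes tested, 6.28% were higher and 13.9% were lower, so the lower share of the relatives (15.4%) was close to that of all genes.

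Compared directly, few ISGs were called between the IP libraries of the conditions. Between the IR and Ctrl IP, 2 of 47 members tested were higher and 4 were lower, against 6.12% and 9.85% of all 19255 genes tested, close to the members' shares. The median log2 fold change was 0.07 (range -0.78 to 1.28), beside 0.06 over all genes. It turned to -0.036 without Ctrl IP 2, to -0.00482 without Ctrl IP 3 and to -0.02 without IR IP 3. By library size only, the median of all genes rose by 0.21, the higher share of all calls went from 38.3% to 76.3%, and 6 members were higher.

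*Mx1* rose in the IP by nearly as much as in the Input (log2 0.70, SE 0.07, adjusted p = 3.52e-06), and no IR IP pool overlapped a Ctrl IP pool. *Ifitm2* was the other higher member, with 5.15, 5.84 and 4.88 CPM in the Ctrl IP and 11.6, 7.16 and 8.53 CPM in the IR IP (log2 0.79, SE 0.26, adjusted p = 0.0482). That call was lost without any of the 3 Ctrl IP pools, IR IP 1 or IR IP 3 (adjusted p = 0.0549 to 0.157), and 48.5% of the 50-base stretches of the gene occur in another gene. It was also lost with the replicate block (log2 0.77, adjusted p = 0.0677), which here matched unrelated Ctrl and IR pools by number. Lower in the IR IP were *Ifi203* (log2 -0.78, SE 0.10, adjusted p = 4.27e-05), *Gbp7* (-0.51, SE 0.08, adjusted p = 2.58e-04), *Eif2ak2* (-0.49, SE 0.06, adjusted p = 1.82e-05) and *Samhd1* (-0.15, SE 0.05, adjusted p = 0.0392). The IR and Ctrl IP pools of the first 3 did not overlap. The call for *Samhd1* was lost without any of the 3 Ctrl IP pools, IR IP 1 or IR IP 3 (adjusted p = 0.0672 to 0.165).

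Set side by side, the Input and the IP moved apart for *Gbp7*, *Eif2ak2* and *Samhd1*, which were higher in the IR Input and lower in the IR IP. *Mx1* and *Ifitm2* were higher in both, *Ifi203* was lower in both, and 20 of the 25 members higher in the Input had no call in the IP. Fewer genes at large were called in the IP (6.12% higher, 9.85% lower) than in the Input (21.0% and 23.9%). A missing call in the IP therefore does not show that a transcript was unchanged there. For *Slfn2* the log2 fold change was 0.42 in the Input and -0.01 (SE 0.03, adjusted p = 0.855) in the IP. *Ifit1* had a fold change of 0.47 in the Input and -0.65 (SE 0.25, adjusted p = 0.0919) in the IP, where it was called lower with all 12 libraries in one fit (adjusted p = 0.0291) and without IR IP 3 (adjusted p = 0.0304). *Rsad2* (1.28, SE 0.45, adjusted p = 0.0683) and *Oasl1* (0.94, SE 0.32, adjusted p = 0.0587) had the largest IP changes and did not pass. The IP pools of *Oasl1* did not overlap, nor did those of *Rsad2*. Both were called higher with DESeq2, with library size only, with at least 10 counts in every library and with all 12 libraries in one fit (adjusted p = 0.0124 to 0.0411). *Oasl1* was also called among protein-coding genes (adjusted p = 0.0456) and *Rsad2* without IR IP 1 (adjusted p = 0.0145).

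**Figure D5:**
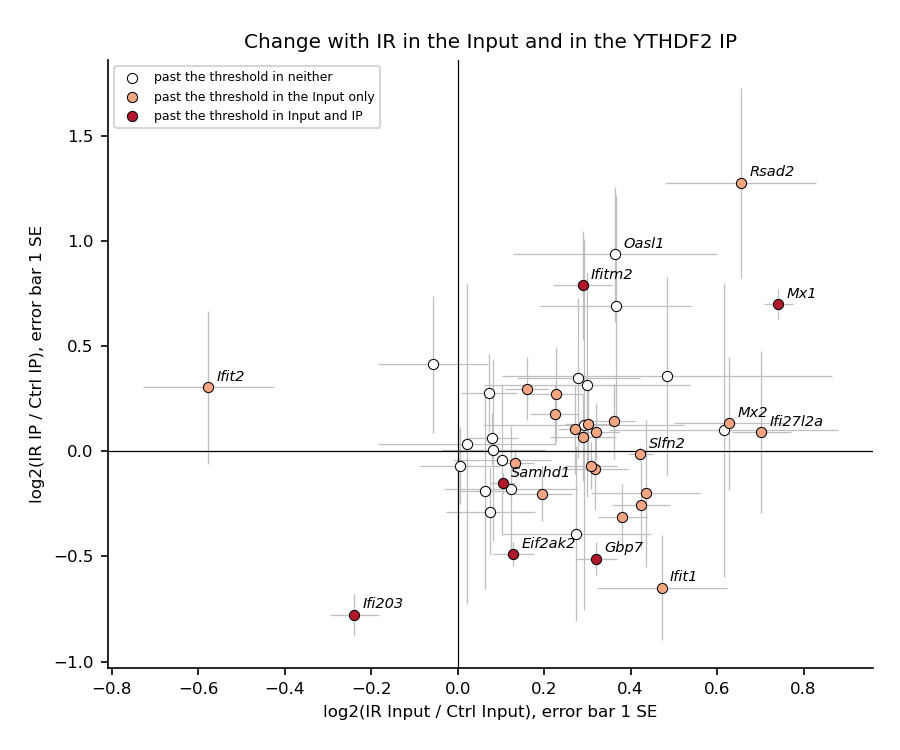
Log2 fold change between IR and Ctrl in the IP (vertical) against that in the Input (horizontal) for the tested members, with bars of 1 SE (n = 3 pools per group). *Mx1* lies at the upper right with 0.74 in the Input and 0.70 in the IP, and *Gbp7* and *Eif2ak2* lie right of 0 and below 0.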

How the data were processed

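The authors trimmed the reads with Trimmomatic 0.39, per the submitters' processing notes, aligned them with HISAT to mm10 and deposited whole-number HTSeq counts per gene of GENCODE M19, without normalization, whose strand option is not given in the sources used here. Gene symbols and coordinates came from GENCODE M21 of the same build, which held 97.8% of the 54446 identifiers in the same version and 99.9% in any version. The 48 members and the other lists, of which 137 of 139 genes were found, were chosen with earlier results of these data known.

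Scaling was by TMM, and each comparison was fitted with edgeR 4.0.16 (R 4.3.3), whose quasi-likelihood test ran over every gene that reached 10 counts in 3 or more of the libraries compared. P-values were adjusted by Benjamini-Hochberg, with a threshold of 0.05, and the SE is the size of the log2 fold change over the square root of F. TMM takes most genes as unchanged between libraries. The 5 comparisons were of conditions within either fraction, of fractions within either condition, and the interaction of both. Tables were joined with pandas 2.3.3 in Python 3.11.15, and the fits were tested on simulated data. Depth is given with the results, and it limits the precision of members with few counts.

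Genes were named by rule: the 4 largest called rises and falls of each comparison among genes averaging 50 or more counts a library, the member with the highest level in each role, and *Isg15*, *Ifit1*, *Ifit3*, *Mx1*, *Rsad2*, *Irf1*, *Irf9*, *Gbp2*, *Irgm1* and *Ifitm3*. A further gene of this rule is not reported here. Others were named for a call lost under an alternative, or after their values were seen. Alternatives were DESeq2 1.42.0, its size factors, library size only, other filters on low counts, protein-coding genes only, all 12 libraries in one fit, a replicate block, and each library left out.

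Both fractions of a pool came from the same lysate, but the main fits did not pair them. Only the replicate block paired IP and Input, by number. Equal numbers in Ctrl and IR mark different mice, so between conditions the replicate block matched unrelated pools. Deviations from the group means of paired IP and Input libraries correlated with r from -0.034 to 0.019 over 13527 genes. Transcript lengths are those of GENCODE M21, promoters those of RefSeq. Shared stretches are the runs of 50 bases of a gene's transcripts that occur in transcripts of another gene.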

Additional observations from a re-analysis of the deposited data

Results flagged for a closer look

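For 11 members the log2(IP/Input) differed between IR and Ctrl by the test of the difference itself, the interaction term of edgeR's quasi-likelihood test on the TMM scale. The change, IR minus Ctrl, was -1.21 for *Ifit1*, -0.92 for *Gbp7*, -0.78 for *Ifi35*, -0.77 for *Gbp3*, -0.71 for *Eif2ak2*, -0.62 for *Ifi203*, -0.52 for *Slfn2*, -0.49 for *Parp9*, -0.47 for *Oasl2*, -0.34 for *Samhd1* and -0.28 for *Parp14*. All 11 were lower in IR on that scale, and with library size only 5 of them were called and *Parp14* turned to 0.033.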

How the results depend on the processing

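Of the counts and medians of the list, 193 values under alternatives stayed close to the reported ones, 28 moved and 4 changed sign. Of the alternative values of the genes named by rule, which gave 104 values in all comparisons, 1491 kept their side of the threshold. Those with a call also kept its direction, while the sign of values without a call was not checked. A call was lost in 49, gained in 16, and lost or gained with a change of sign in 4. Over all members, calls were lost 111 times and gained 56 times without a change of sign. A call was lost or gained together with a change of sign 4 times. Besides the losses given with the results, calls ended under some scaling, filter or tool for *Eif2ak2* in the Input, *Oasl1*, *Dtx3l* and *Xaf1* in Ctrl, *Ifit3*, *Isg20*, *Irgm1*, *Mx2* and *Parp9* in IR, *Parp14* and *Parp9* in the interaction, and *Samhd1* and *Ifitm2* in the IP. With library size only, the median of the members was -0.49 for IP against Input in Ctrl, -0.42 in IR, 0.033 for the interaction (1 higher, 5 lower) and 0.27 for the IP (6 higher). There a call was lost or gained together with a change of sign for *Samhd1* (0.11 for IP against Input in IR, 0.055 in the IP), *Parp14* (0.033, interaction) and *Slfn2* (0.19 in the IP). With all 12 libraries in one fit, the Input had 0 lower members and a median of 0.37, and the IP had 4 higher members. With at least 10 counts in every library the median was -0.45 for IP against Input in IR and -0.18 for the interaction, and 4 members were higher in the IP. Among protein-coding genes these medians were -0.38 and -0.19. DESeq2 called 4 members higher in the IP, the fit with no filter 1, and the replicate block 1. The replicate block left 21 members lower in Ctrl and 21 in IR, and changed no call other than those given with the results.

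Leaving out each library in turn, the Input had 23 to 25 higher members and medians of 0.25 to 0.28, IP against Input had 9 to 12 higher and 18 to 21 lower members in Ctrl (medians -0.45 to -0.23) and 7 to 9 higher and 18 to 22 lower in IR (-0.62 to -0.54), the interaction had 0 to 1 higher and 8 to 14 lower (-0.33 to -0.13), and the IP had 1 to 2 higher and 3 to 4 lower (-0.036 to 0.17). The cause of these differences was not tested.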

Other observations

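Relatives of the members by gene family gave further values. In the Input, 4 of 25 tested relatives were higher in IR and 3 were lower, and in the Ctrl IP 4 were enriched and 8 were lower, all below the shares of all genes. In the IR IP, 4 of 26 tested relatives were enriched (15.4%) and 11 were lower (42.3%), against 32.1% and 30.4% of all genes. *Parp10*, a mono-ADP-ribosyltransferase, was enriched in both conditions (log2(IP/Input) 1.38 in Ctrl and 1.06 in IR). Among 7 negative regulators, 3 were higher and 2 were lower in the IR Input. Between the IP libraries, 2 of the 7 were higher and 2 were lower in IR, with a median log2 fold change of -0.13. The suppressors of cytokine signaling *Socs1* and *Socs3* were higher in the IR Input (log2 fold change 0.38 and 0.15) and in the IR IP (0.38 and 0.40). The interferon ligand genes summed to 0.596 to 1.44 CPM in the Ctrl IP libraries and 1.51 to 3.37 CPM in the IR IP libraries, more than in any Input library.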
